A study of Arabidopsis thaliana with 12 samples.

Results

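PDF1.2, PDF1.2b and THI2.1 are Arabidopsis genes for small, cysteine-rich, secreted defence peptides. PDF1.2 and PDF1.2b encode plant defensins and THI2.1 encodes a thionin, and the transcripts of all 3 are commonly read as markers of the jasmonate response. They were taken by name, through the 1 probe set that the array annotation gives each of them.  These are 3 of the 22746 probe sets tested, and none of them is assigned to a second gene in the annotation.

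Jasmonate is perceived by the receptor protein COI1, which removes the JAZ repressors and frees transcription factors to act. One branch of the response runs through MYC factors and wound genes. The other runs through ERF factors, where jasmonate and ethylene act together, and PDF1.2 is its usual marker. Plant defensins and thionins act against microbes, and PDF1.2 and THI2.1 transcripts are known to accumulate after fungal attack or jasmonate treatment.

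In assembly TAIR10.1, PDF1.2 is the protein-coding locus AT5G44420 on chromosome 5 from 17906968 to 17907638, a span of 671 bases. PDF1.2b is AT2G26020 on chromosome 2 from 11089123 to 11089805 (683 bases). THI2.1 is AT1G72260 on chromosome 1 from 27198356 to 27199468 (1113 bases). Which parts of these genes the probes cover is not given in the sources used here. The suffix _x_at of the PDF1.2b probe set marks it as one that can also bind related transcripts, so its signal may hold transcripts of other defensins, PDF1.2 among them.

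The study compared wild type with the rcf1-1 mutant, whose lesion lies in a gene for a DEAD-box RNA helicase, before and during cold. Wild type was the Columbia line gl1 carrying the CBF2::LUC reporter transgene, and whether rcf1-1 carries the same marker and reporter is not given in the sources used here. Seedlings of both genotypes, 14 days old, had been raised at 21 °C on medium with sucrose under 16 h of light and 8 h of darkness. They were sampled unchilled (0 h) or after 12 h or 24 h at 4 °C, with 2 biological replicate arrays in each of the 6 groups. How many seedlings made up a replicate is not given in the sources used here.

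Values are log2 RMA values, and a difference of 1 is 2-fold. The medians of the 12 arrays lay between 4.03 and 4.21. The r between the 2 arrays of a group, over all probe sets, was 0.989 to 0.996 in the 4 groups sampled at 0 h or 12 h, 0.955 in wild type at 24 h and 0.954 in rcf1-1 at 24 h. On both 24 h replicate 2 arrays the actin control probes gave 5' minus 3' values of -6.15 and -5.89, and the other arrays gave -2.03 to -1.49. The leaf genes LHCB4.2, a chlorophyll-binding protein gene, and RCA, the Rubisco activase gene, read 8.89 to 12.13 and 11.73 to 12.86. EXPA7, a root hair gene, read 3.76 to 4.95. None of the 14 flower and seed markers listed was paired with a probe set.

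Averaged over the 3 times, all 3 genes were higher in rcf1-1 than in wild type. The log2 level of PDF1.2 was higher by 4.70 ± 0.28 (SE over 6 arrays in each genotype; adjusted p = 8.76e-06), PDF1.2b by 4.71 ± 0.40 (adjusted p = 0.000128) and THI2.1 by 2.28 ± 0.26 (adjusted p = 0.000675). As fold changes these are 25.9, 26.2 and 4.85. All 3 were called in this contrast (limma, adjusted p under 0.05), where 3.68% of all probe sets were called higher. Each wild-type group mean lay below the lowest array median of 4.03, and the file holds no detection calls, so how near these levels lie to the lowest measurable signal is not known. The folds are estimates from the values as deposited. In whole seedlings, more cells with the transcript and more transcript per cell cannot be told apart.

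**Figure D1:**
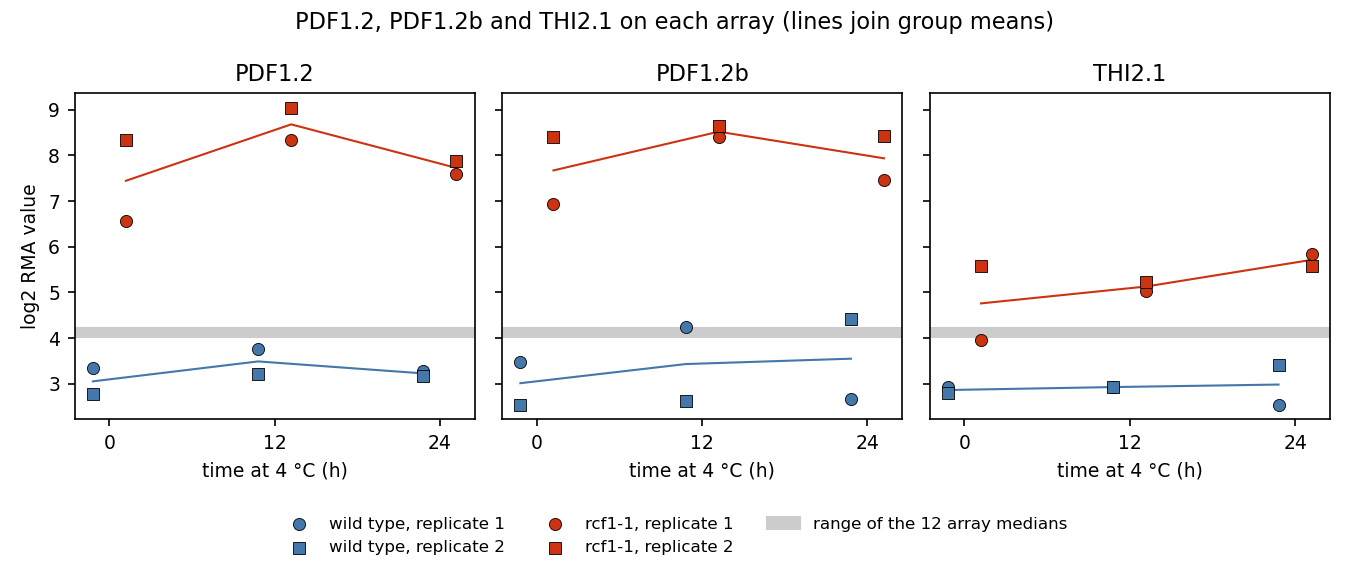
Log2 RMA value (y axis) of PDF1.2, PDF1.2b and THI2.1 on each of the 12 arrays against time at 4 °C in hours (x axis). Blue is wild type, red is rcf1-1, circles are replicate 1, squares are replicate 2, lines join group means, and the grey band spans the array medians from 4.03 to 4.21. All red points lie above all blue points in each panel, with the closest approach of 0.53 for THI2.1.

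The defensin gene PDF1.2 read 3.34 and 2.77 on the 2 unchilled wild-type arrays, 3.76 and 3.21 at 12 h, and 3.28 and 3.17 at 24 h. In rcf1-1 it read 6.56 and 8.33 unchilled, 8.33 and 9.03 at 12 h, and 7.58 and 7.87 at 24 h. The genotypes did not overlap: the lowest rcf1-1 array, an unchilled one, stood 2.79 above the highest wild-type array. Within wild type, every value lay below the median of its own array.

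PDF1.2b, the close relative of PDF1.2, read 3.48 and 2.54 in unchilled wild type, 4.24 and 2.62 at 12 h, and 2.67 and 4.42 at 24 h. In rcf1-1 it read 6.93 and 8.41 unchilled, 8.40 and 8.64 at 12 h, and 7.46 and 8.42 at 24 h. The genotypes again did not overlap, with 2.51 between the nearest arrays. The 12 h replicate 1 and 24 h replicate 2 arrays of wild type lay above their array medians and the other 4 wild-type arrays below them.

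THI2.1, the thionin gene, read 2.92 and 2.80 in unchilled wild type, 2.93 and 2.92 at 12 h, and 2.54 and 3.42 at 24 h. In rcf1-1 it read 3.95 and 5.57 unchilled, 5.03 and 5.23 at 12 h, and 5.85 and 5.58 at 24 h. Here the nearest arrays of the 2 genotypes were 0.53 apart. The unchilled rcf1-1 replicate 1 array lay below its array median, as did all 6 wild-type arrays. A complete separation of the 6 rcf1-1 arrays above the 6 wild-type arrays occurred for 177 of the 22746 probe sets (0.778%). A gap as wide as that of THI2.1 occurred for 20 of them, as wide as that of PDF1.2b for 4, and as wide as that of PDF1.2 for 2.

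The first comparison asks how the genotypes differed without cold. In unchilled seedlings the rcf1-1 mean of PDF1.2 exceeded that of wild type by 4.39 ± 0.49 (SE, 2 arrays in each; limma adjusted p = 0.00971) and PDF1.2b by 4.66 ± 0.70 (adjusted p = 0.0420). They held the 3rd and 2nd largest positive differences of all probe sets. THI2.1 differed by 1.90 ± 0.44 (95% interval 0.92 to 2.88, unadjusted for the number of probe sets) and did not pass (adjusted p = 0.249). So 2 of the 3 genes were called, while 0.0923% of all probe sets were called higher at 0 h. The SE of each contrast draws on the spread pooled over the 6 groups, not on the compared arrays alone. The unchilled rcf1-1 arrays had SDs of 1.25 for PDF1.2, 1.05 for PDF1.2b and 1.15 for THI2.1. In unchilled wild type these SDs were 0.40, 0.66 and 0.08.

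The calls at 0 h depended on which arrays were in the fit, while the differences of the defensin genes stayed at 3.51 or more with any 1 array left out. The call of PDF1.2 held in 10 of the 12 fits that left out 1 array and was lost without wild-type 0 h replicate 1 (adjusted p = 0.0909) or replicate 2 (adjusted p = 0.183), with differences of 4.68 and 4.11. That of PDF1.2b held in 4 of these 12 fits. It was lost without wild-type 0 h replicate 1 or 2, with differences of 5.13 and 4.19 (adjusted p = 0.127 and 0.553), and without rcf1-1 0 h replicate 1 or 2, with differences of 5.40 and 3.92 (adjusted p = 0.0697 and 0.497). It was also lost without any one of the 4 arrays of 12 h (adjusted p = 0.0618 to 0.121), where the difference stayed at 4.66. Without rcf1-1 0 h replicate 1, THI2.1 was called at 2.71 (adjusted p = 0.0386), and without replicate 2 its difference was 1.09. THI2.1 was also called at 1.90 without both 24 h replicate 2 arrays (adjusted p = 0.00757).

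After 12 h at 4 °C all 3 genes were higher in rcf1-1 than in wild type at the same time, among 0.541% of probe sets called higher. PDF1.2 differed by 5.19 ± 0.49 (2 arrays in each genotype; adjusted p = 0.000767) and PDF1.2b by 5.09 ± 0.70 (adjusted p = 0.00697). THI2.1 differed by 2.2 ± 0.44 (adjusted p = 0.0397). The gap between the nearest arrays of the genotypes was 4.56 for PDF1.2, 4.16 for PDF1.2b and 2.1 for THI2.1.

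The call of PDF1.2 at 12 h held in all 12 fits with 1 array left out. PDF1.2b lost its call without wild-type 12 h replicate 2 (adjusted p = 0.0994) or without rcf1-1 12 h replicate 1 or 2 (adjusted p = 0.0944 and 0.117). THI2.1 lost its call without any one of the 4 arrays of 12 h (adjusted p = 0.243 to 0.339) and without either wild-type 0 h array (adjusted p = 0.0802 and 0.0804).

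After 24 h all 3 genes were again higher in rcf1-1, against 3.31% of all probe sets called higher. PDF1.2 differed by 4.50 ± 0.49 (2 arrays in each genotype; adjusted p = 0.000532), PDF1.2b by 4.39 ± 0.70 (adjusted p = 0.00436) and THI2.1 by 2.73 ± 0.44 (adjusted p = 0.00478). Their places among the largest positive differences were 15th, 19th and 82nd. These calls held whichever single array was left out.

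At 24 h the replicate 2 arrays with the low actin 5' signal enter both genotypes. Without these 2 arrays the differences were 4.31 for PDF1.2, 4.78 for PDF1.2b and 3.30 for THI2.1, all called (adjusted p = 0.000174 to 0.000317), with the lone array of each genotype assumed to vary like the other groups. With array quality weights none of the 3 was called at 24 h (adjusted p = 0.0613, 0.100 and 0.250). With the 24 h arrays fitted alone PDF1.2b (adjusted p = 0.130) and THI2.1 (adjusted p = 0.160) were not called.

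**Figure D2:**
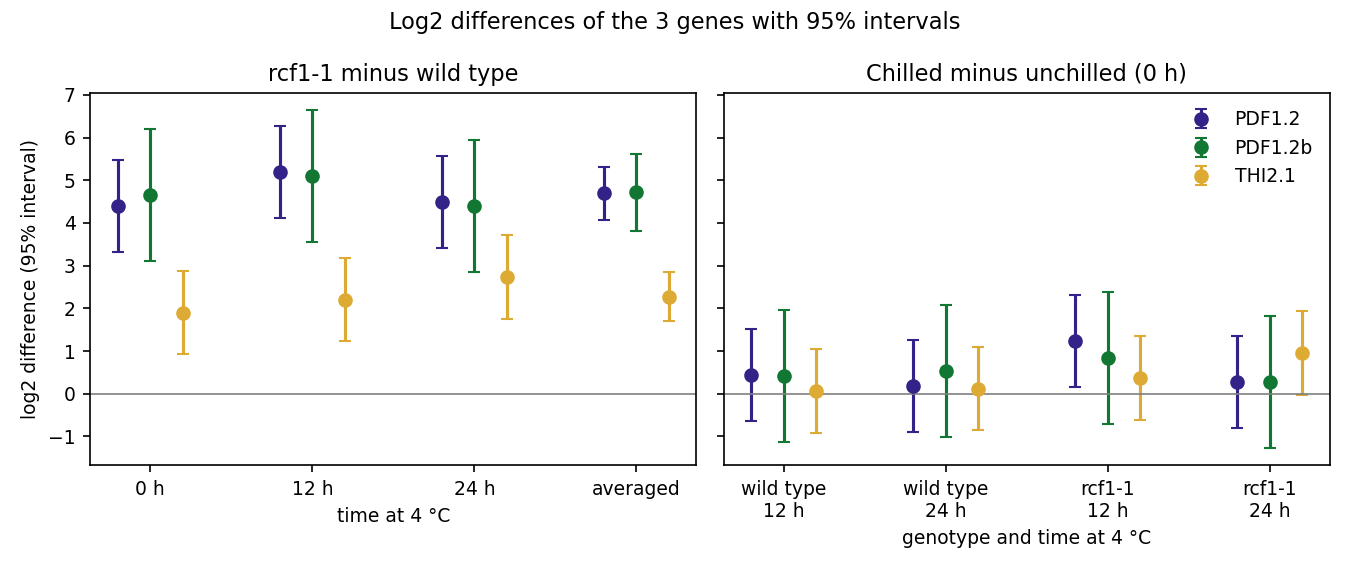
Log2 differences with 95% intervals, not adjusted for the number of probe sets. The left panel shows rcf1-1 minus wild type at each time and averaged, and the right panel each chilled group minus the unchilled group of its genotype. The genotype differences of the defensin genes lie between 4.39 and 5.19 and those of THI2.1 between 1.90 and 2.73, while the largest difference with cold is 1.24 for PDF1.2 in rcf1-1.

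The next comparison sets each chilled group against the unchilled group of its genotype. No unchilled seedlings were sampled at 12 h or 24 h, so cold cannot be told apart from elapsed time or time of day. None of the 3 was called in either genotype at 12 h or 24 h against 0 h. Of all probe sets, 12% were called either way at 12 h and 13.2% at 24 h in wild type, and 12.2% and 20.8% in rcf1-1. In wild type PDF1.2 differed by 0.44 ± 0.49 at 12 h and 0.17 ± 0.49 at 24 h, PDF1.2b by 0.42 ± 0.70 and 0.54 ± 0.70, and THI2.1 by 0.06 ± 0.44 and 0.12 ± 0.44.

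In rcf1-1 PDF1.2 differed by 1.24 ± 0.49 at 12 h (95% interval 0.16 to 2.31; adjusted p = 0.145) and by 0.28 ± 0.49 at 24 h. PDF1.2b differed by 0.85 ± 0.70 (interval -0.70 to 2.39) and 0.26 ± 0.70. THI2.1 differed by 0.37 ± 0.44 at 12 h and by 0.95 ± 0.44 at 24 h (interval -0.02 to 1.93; adjusted p = 0.154). The 12 h difference of PDF1.2 was called with the compared arrays alone (adjusted p = 0.0193), with array quality weights (adjusted p = 0.0211) and without both 24 h replicate 2 arrays (adjusted p = 0.0394). It was 2.12 and called without rcf1-1 0 h replicate 2 (adjusted p = 0.0129), and 0.35 without replicate 1. The 24 h difference of THI2.1 was likewise 1.76 and called without rcf1-1 0 h replicate 2 (adjusted p = 0.0143).

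The difference between the genotypes' cold responses was tested directly. None of the 3 genes was called, against 0.0879% of probe sets called either way at 12 h and 1.1% at 24 h. At 12 h the rcf1-1 response minus the wild-type response was 0.80 for PDF1.2 (95% interval -0.73 to 2.32), 0.43 for PDF1.2b (-1.76 to 2.61) and 0.31 for THI2.1 (-1.08 to 1.69). At 24 h it was 0.11 (-1.42 to 1.63), -0.27 (-2.46 to 1.91) and 0.83 (-0.55 to 2.22). All 6 intervals include 0 and also extend past 1, a 2-fold larger response in rcf1-1. Those of PDF1.2b at both times, THI2.1 at 12 h and PDF1.2 at 24 h also extend past a 2-fold smaller response.

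The order of the group means put all rcf1-1 groups above all wild-type groups for each gene. For PDF1.2 it ran from rcf1-1 at 12 h (8.68) through 24 h (7.73) and 0 h (7.44) to wild type at 12 h (3.49), 24 h (3.22) and 0 h (3.05). PDF1.2b had the same rcf1-1 order (8.52, 7.94 and 7.67) and then wild type at 24 h (3.55), 12 h (3.43) and 0 h (3.01). THI2.1 ran from rcf1-1 at 24 h (5.71) through 12 h (5.13) and 0 h (4.76) to wild type at 24 h (2.98), 12 h (2.93) and 0 h (2.86).

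The widest step in each order lay between the genotypes. The mean of unchilled rcf1-1 stood above that of the highest wild-type group by 3.96 for PDF1.2, 4.12 for PDF1.2b and 1.78 for THI2.1, with no overlap of the arrays. This step is given without a test, since it spans both genotype and time. No neighbours within a genotype were called, the lowest adjusted p among them being 0.337 for PDF1.2 in rcf1-1 at 12 h against 24 h. The contrasts of 24 h against 12 h called 4.62% of all probe sets in wild type and 3.19% in rcf1-1.

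The 3 genes were more variable between replicates than most. Their residual SDs over the 6 groups were 0.60 for PDF1.2, 0.90 for PDF1.2b and 0.54 for THI2.1, against a median of 0.22 over all probe sets. These exceeded the SDs of 96.0%, 99.4% and 94.0% of probe sets. PDF1.2b was also spread within wild type, with replicates 1.62 apart at 12 h and 1.75 apart at 24 h.

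The 2 unchilled rcf1-1 arrays stood apart for these genes. Replicate 2 was above replicate 1 by 1.77 for PDF1.2, 1.62 for THI2.1 and 1.48 for PDF1.2b. These were the 2nd, 5th and 7th largest positive differences of all probe sets between these 2 arrays, whose median absolute difference was 0.116. A difference above 1 in either direction occurred for 30 probe sets. Across all probe sets the same 2 arrays correlated at r = 0.996, the closest of the 6 replicate pairs.

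**Figure D3:**
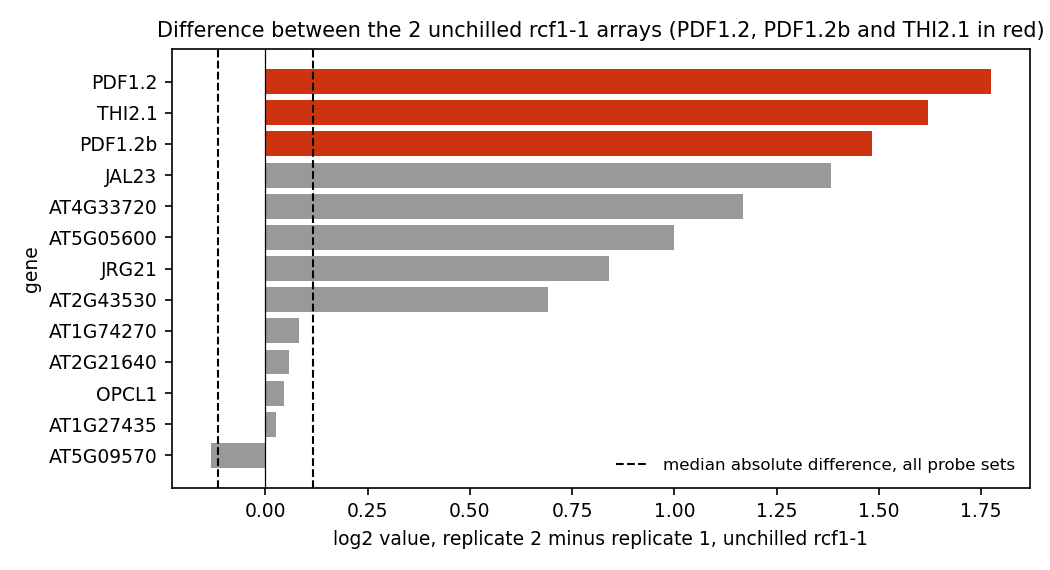
Log2 value in replicate 2 minus replicate 1 of unchilled rcf1-1 (x axis) for PDF1.2, PDF1.2b and THI2.1 (red) and for other named genes (grey), with the median absolute difference of all probe sets, 0.116, as dashed lines. JAL23, AT4G33720, AT5G05600, JRG21 and AT2G43530 lie between 0.69 and 1.38 on the same side, while AT2G21640, AT1G74270, OPCL1, AT1G27435 and AT5G09570 lie between -0.13 and 0.08.

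Of the 11 other listed jasmonate and ethylene genes with a probe set of their own, 7 were higher and 4 lower in replicate 2 than in replicate 1. By more than the median absolute difference of 0.116, 5 were higher and 2 lower. The lectin gene JAL23 was 1.38 higher in replicate 2, and JRG21, which encodes an oxygenase of jasmonic acid turnover, was 0.84 higher. OPCL1, a gene of jasmonate synthesis, differed by 0.05, and the repressor gene GRX480 was lowest at -0.18. The genes shown in that plot are those described below, and they were chosen after values were seen.

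The comparison was then extended to other defensin and thionin genes, taken from lists chosen by locus and not from a search of the whole array. Of 12 such genes with a probe set of their own, none was called between the genotypes at 0 h, 12 h or 24 h. Their median differences were -0.19, -0.21 and 0.12, against medians of -0.02, -0.01 and 0.00 over all probe sets. Of these 12, the 6 probe sets of PDF1.1, PDF1.4, PDF2.4, PDF2.6, PDF3.1 and AT2G15010 lay below the array median on all 12 arrays, with values of 2.25 to 4.05. PDF1.2c, another close relative of PDF1.2, was not paired with a probe set, nor were the listed PDF1.3 and PDF1.5.

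THI2.2, the other listed gene named as a thionin, had the opposite sign. It read 9.27 to 10.40 on the wild-type arrays and 8.41 to 9.86 on the rcf1-1 arrays, so the genotypes overlapped. Averaged over the 3 times it was lower in rcf1-1 by -0.78 ± 0.21 (adjusted p = 0.0412), the only one of the 12 called in that contrast, where 4.77% of all probe sets were called lower. At the single times it differed by -0.87, -1.04 and -0.43, none called. PDF1.4, the other gene of the PDF1 group with the largest average difference, stood at 0.49 ± 0.15 (adjusted p = 0.0673).

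With cold, 2 of these 12 genes were called at 12 h, both higher, and 3 at 24 h, 2 higher and 1 lower, in each genotype. Those called either way among all probe sets were 12% and 13.2% in wild type and 12.2% and 20.8% in rcf1-1. PDF2.1, a defensin gene of the PDF2 group, rose in both genotypes: from 4.33 and 3.90 in unchilled wild type to 8.49 and 8.90 at 12 h, and from 3.84 and 3.55 in unchilled rcf1-1 to 7.93 and 8.01. The 12 h differences were 4.58 in wild type and 4.27 in rcf1-1, and those at 24 h were 3.92 and 4.68, all called. PDF2.2, which the annotation lists as LCR69, rose by 3.46 and 3.03 in wild type and by 3.55 and 3.47 in rcf1-1. AT1G66100 fell at 24 h, by 1.88 in wild type and by 0.90 in rcf1-1. None of these 3 genes was called between the genotypes at any time.

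**Figure D4:**
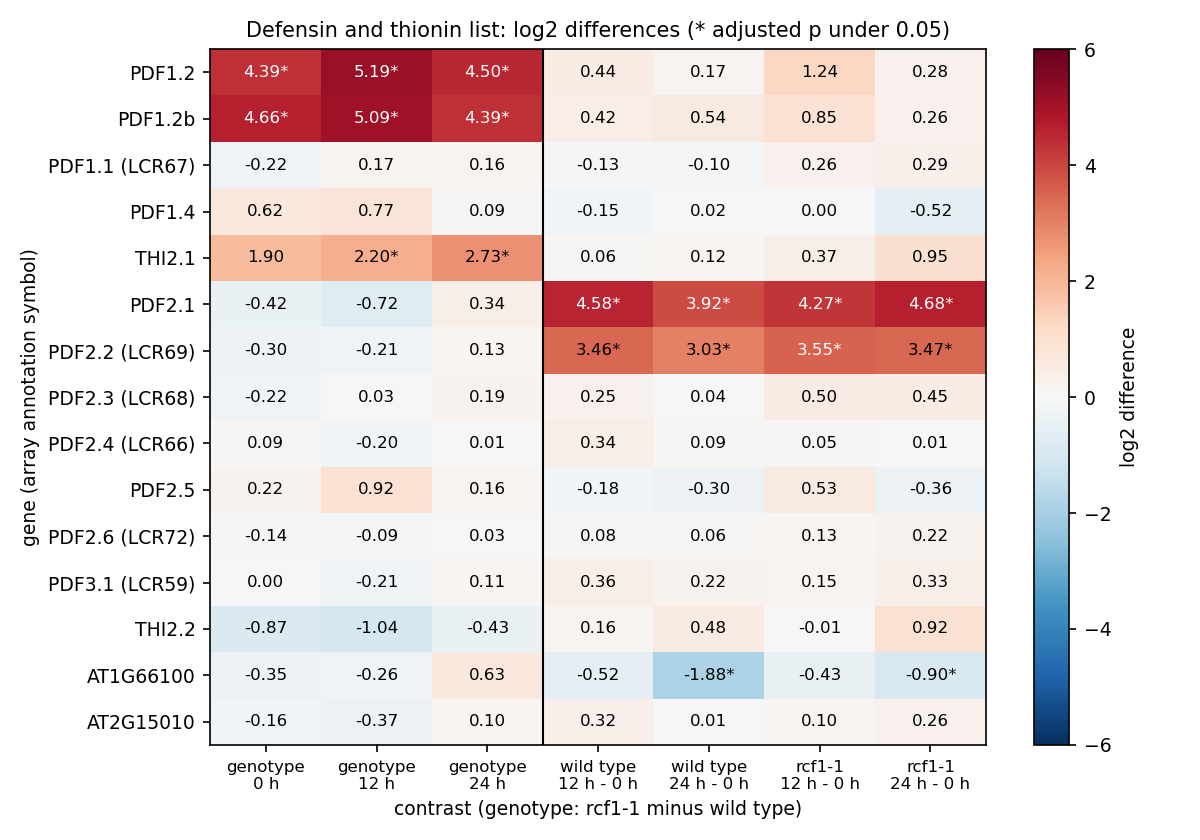
Log2 differences of 15 defensin and thionin genes (rows) in 7 contrasts (columns), with red for higher and blue for lower and an asterisk at an adjusted p under 0.05. The left 3 columns are rcf1-1 minus wild type, where calls appear for PDF1.2, PDF1.2b and THI2.1. The right 4 columns are chilled minus unchilled seedlings, where calls appear for PDF2.1, PDF2.2 and AT1G66100.

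Among the other jasmonate and ethylene genes, 11 of 78 listed were paired with a probe set of their own. Of these 11, 2 were called higher in rcf1-1 at 0 h, 3 at 12 h and 3 at 24 h, and 1 was called lower at 24 h. The corresponding shares of all probe sets called higher were 0.0923%, 0.541% and 3.31%, and 4.19% were called lower at 24 h. The lists were chosen with earlier results of these data known, so these shares give scale and are not a test. The JAZ repressors, COI1, MYC2, the ERF factors ERF1 and ORA59, and the LOX, AOS and AOC genes of jasmonate synthesis were not analysed here, nor was any of the 9 salicylic acid genes listed.

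JAL23, a jacalin-related lectin gene placed with the outputs of the MYC branch, was higher in rcf1-1 at every time. It read 2.63 to 3.32 on the 6 wild-type arrays and 5.70 to 7.95 on the 6 rcf1-1 arrays, with no overlap. The differences were 4.06 (adjusted p = 0.00971), 4.40 (adjusted p = 0.00161) and 3.68 (adjusted p = 0.000979) at 0 h, 12 h and 24 h.

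JRG21 (jasmonate-regulated gene 21) encodes an oxygenase that hydroxylates jasmonic acid. It read 2.71 to 3.21 in wild type and 4.56 to 5.42 in rcf1-1, again with no overlap. The differences of 1.98, 2.45 and 1.93 were all called (adjusted p = 0.0465, 0.00366 and 0.00402).

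OPCL1, which encodes the ligase that activates a jasmonate precursor for beta-oxidation, read 5.07 to 5.68 in wild type and 5.97 to 7.07 in rcf1-1. It differed by 0.75 ± 0.25 at 0 h (adjusted p = 0.518), by 1.35 ± 0.25 at 12 h (adjusted p = 0.0258) and by 1.14 ± 0.25 at 24 h (adjusted p = 0.0192). The genotypes did not overlap, although the 0 h difference was not called.

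JMT, the methyltransferase gene that forms methyl jasmonate, was the other of 2 paired genes among the 10 listed MYC branch outputs. It lay below the array median on all 12 arrays. At 24 h it read 3.71 and 3.77 in wild type against 2.81 and 3.1 in rcf1-1, a difference of -0.78 ± 0.16 (adjusted p = 0.0125). At 0 h and 12 h its differences were 0.42 and 0.34, not called. The signs therefore differ between times, and its cold response at 24 h differed between the genotypes by -1.2 (adjusted p = 0.0296).

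The regulators with a probe set were not called at any time. MYC3 differed by 0.12, -0.06 and 0.77 at 0 h, 12 h and 24 h, and MYC4 by -0.13, -0.84 and -1.11. EIN3, the transcription factor gene of ethylene signalling, differed by -0.05, 0.15 and 0.69. GRX480, a glutaredoxin gene known as a repressor of PDF1.2, differed by 0.16, 0.40 and -0.02, with all values below the array medians. Of the 4 paired genes listed with jasmonate turnover, JRG21 was called at each time and the other 3 at none. AT5G05600, listed as JOX2, differed by 2.05 ± 0.46 at 0 h (adjusted p = 0.228) and by 0.53 and 0.14 later. AT3G11180, listed as JOX1, differed by 0.09, 0.09 and 0.17. AT2G38240, listed as JOX4, was called higher in rcf1-1 than in wild type only when averaged over the times (0.75 ± 0.18, adjusted p = 0.0299).

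The closest profiles to those of the 3 genes were found by Pearson's r over the 12 arrays, as a description. PDF1.2 and PDF1.2b correlated with each other at 0.98, and each with THI2.1 at 0.94. After these, PDF1.2 was most like JRG21 (0.98), JAL23 (0.96), AT4G33720 (0.95), AT1G27435 (0.93) and AT2G43530 (0.93). PDF1.2b was most like JRG21 (0.97), JAL23 (0.93), AT4G33720 (0.92), AT1G27435 (0.91) and AT1G74270 (0.91). THI2.1 was most like AT1G74270 (0.95), AT2G21640 (0.94), JRG21 (0.93), AT5G09570 (0.92) and JAL23 (0.90).

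The arrays share their genotype, and the rcf1-1 and wild-type arrays form separate clusters for all 3 genes, so r was also taken within each genotype (6 arrays). Within rcf1-1, PDF1.2 correlated with PDF1.2b at 0.92 and with JRG21 at 0.76, and PDF1.2b correlated with JRG21 at 0.90. THI2.1 correlated with JRG21 at 0.34 there. JAL23 correlated within rcf1-1 at 0.50 with PDF1.2, 0.27 with PDF1.2b and 0.13 with THI2.1. For AT4G33720 these values were 0.45, 0.18 and -0.08. High r over the 12 arrays thus did not always hold within a genotype. THI2.1 correlated within rcf1-1 with PDF1.2 at 0.56, with PDF1.2b at 0.54, with AT1G74270 at 0.68 and with AT2G21640 at 0.64. Within wild type PDF1.2 correlated with PDF1.2b at 0.58, with THI2.1 at 0.02 and with JRG21 at -0.18. Within wild type PDF1.2b correlated with THI2.1 at 0.73, with JRG21 at 0.40 and with AT2G21640 at 0.83, and THI2.1 correlated with JRG21 at 0.58, with AT1G74270 at 0.54 and with AT2G21640 at 0.75. By Spearman's rho over 12 arrays, 1 of the 5 genes named for PDF1.2, 0 of those for PDF1.2b and 1 of those for THI2.1 came again among the closest 5.

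**Figure D5:**
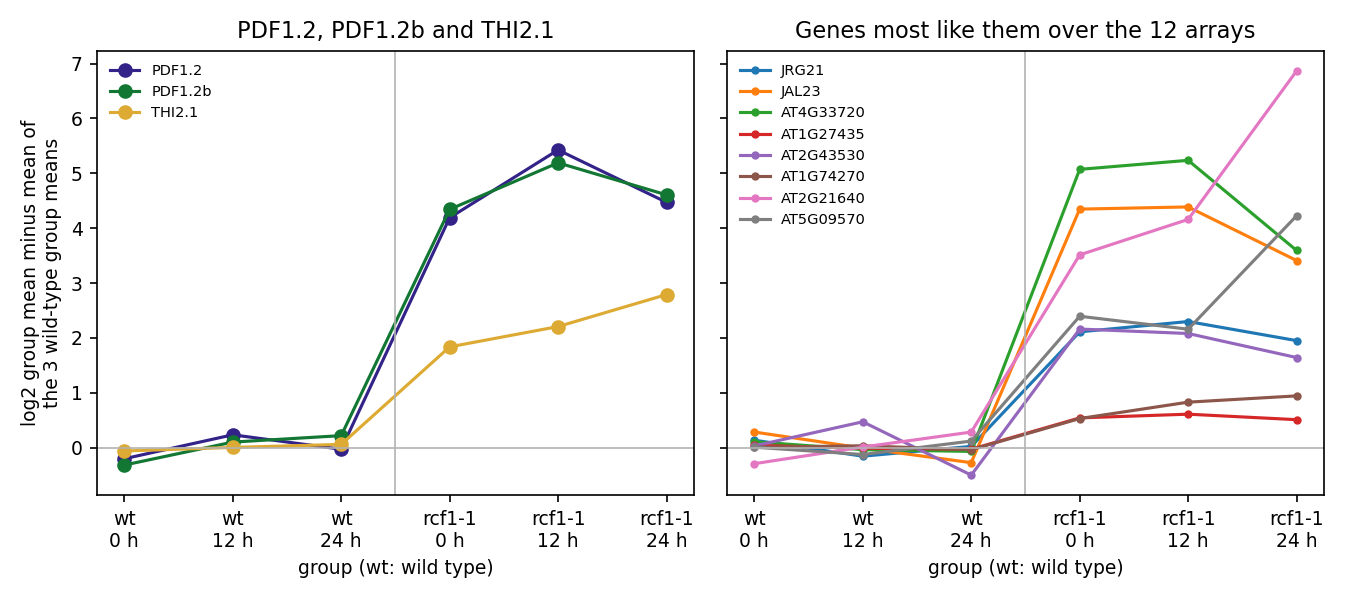
Group means minus the mean of the 3 wild-type group means (y axis, log2) in the 6 groups (x axis) for PDF1.2, PDF1.2b and THI2.1 (left) and the 8 genes most like them (right). Within rcf1-1, AT4G33720, JAL23, PDF1.2 and PDF1.2b are highest at 12 h, and AT2G21640, AT5G09570 and THI2.1 at 24 h.

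These 8 genes were chosen by r over arrays that separate by genotype, so a higher level in rcf1-1 largely follows from that choice. Their calls are given as a description. Of all probe sets, 0.0923%, 0.541% and 3.31% were called higher at 0 h, 12 h and 24 h. The size and timing of the genotype difference varied among the 8 genes. AT4G33720 differed by 4.96, 5.27 and 3.66 at 0 h, 12 h and 24 h and AT2G43530 by 2.13, 1.61 and 2.14, all called. AT2G21640 differed by 3.81, 4.15 and 6.58 and AT5G09570 by 2.39, 2.28 and 4.11, all called. AT1G74270 differed by 0.52, 0.80 and 0.98, called at 24 h alone, and AT1G27435 by 0.50, 0.62 and 0.54, called at no single time. These loci carry only their locus name in the gene table used for naming, and no role is given for them here.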

How the data were processed

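The deposited values are on a log2 scale, with a single value for each probe set on each array. Per the submitters' processing notes, the authors used RMA. Its software and version, and which arrays were normalized together, were not stated in those notes. Of 22810 probe sets, 64 controls were left out. Names came from the array's probe annotation (exactly 1 gene for 13513 probe sets, several for 503, none for 8730) and the TAIR10.1 gene table.

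Tests used limma 3.58.1 in R 4.3.3: 1 mean per group over 12 arrays (6 residual degrees of freedom) and eBayes with a trend on mean expression. P-values are two-sided, adjusted by Benjamini-Hochberg over 22746 probe sets within each of 12 contrasts, and called under 0.05. The procedure was tested on simulated data.

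The genes, lists, tests and alternatives were chosen with earlier results of these data known. Named besides the 3 genes were, for each, the 5 single-gene probe sets with the highest r, every listed gene called at a time, and the listed gene with the largest average difference per list. Others named, among them the rising PDF2 genes and the uncalled regulators, were chosen after their values were seen. Of 9 lists with 107 genes, 26 genes were paired. The number of arrays limits the precision.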

Additional observations from a re-analysis of the deposited data

How the results depend on the processing

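The 36 results (3 genes in 12 contrasts) were recomputed under 753 alternatives: 673 kept direction and side of the threshold, 32 lost the call, 11 gained one and 37 reversed sign. No called difference reversed. A second quantile normalization and a filter below the 30th percentile of the mean (passed by all 3 genes) changed no call, and every listed gene had 1 probe set, so averaging probe sets changed nothing. The cause of the changes below was not tested. Testing against a minimum change of 2-fold lost PDF1.2 at 0 h (4.39; adjusted p = 0.0992), PDF1.2b at 0 h (4.66; 0.510), 12 h (5.09; 0.0606) and 24 h (4.39; 0.0548), and THI2.1 at 12 h (2.2; 1.00), 24 h (2.73; 0.180) and averaged (2.28; 0.116). Without the trend PDF1.2b at 0 h (4.66; 0.0671) was lost. With array quality weights PDF1.2 (4.50; 0.0613), PDF1.2b (4.39; 0.100) and THI2.1 (2.73; 0.250) at 24 h were lost, while THI2.1 at 0 h (1.90; 0.0132) and PDF1.2 in rcf1-1 at 12 h against 0 h (1.24; 0.0211) were gained. With the compared arrays alone PDF1.2b (4.39; 0.130) and THI2.1 (2.73; 0.160) at 24 h were lost, and in rcf1-1 at 12 h against 0 h PDF1.2 (1.24; 0.0193) and PDF1.2b (0.85; 0.0404) were gained. Without both 24 h replicate 2 arrays, and with a term for them, THI2.1 at 0 h (1.90; 0.00757 and 0.0137) and PDF1.2 in rcf1-1 at 12 h against 0 h (1.24; 0.0394 and 0.0410) were gained. Signs turned, in the same order of these fits, for PDF1.2b in wild type at 24 h against 0 h (-0.34 and -0.14) and against 12 h (-0.76 and -0.56), THI2.1 in wild type at 24 h against 0 h (-0.32 and -0.032) and against 12 h (-0.38 and -0.10) and PDF1.2b in rcf1-1 at 24 h against 0 h (-0.21 and -0.41). The 24 h difference of responses turned only without those arrays, for PDF1.2 (-0.087) and PDF1.2b (0.12).

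Leaving out each array in turn gave, for rcf1-1 minus wild type, 3.51 to 5.28 for PDF1.2, 3.92 to 5.40 for PDF1.2b and 1.09 to 2.71 for THI2.1 at 0 h, 4.84 to 5.54 for PDF1.2, 4.28 to 5.90 for PDF1.2b and 2.1 to 2.3 for THI2.1 at 12 h, and 4.36 to 4.64, 3.51 to 5.26 and 2.29 to 3.17 at 24 h. For wild type at 12 h against 0 h it gave -0.39 to 1.23 for PDF1.2b. At 24 h against 0 h it gave -0.11 to 0.46 for PDF1.2, -0.34 to 1.41 for PDF1.2b and -0.32 to 0.56 for THI2.1, and at 24 h against 12 h -0.54 to 0.01, -0.76 to 0.99 and -0.38 to 0.49. For rcf1-1 at 12 h against 0 h it gave 0.35 to 2.12 for PDF1.2, 0.11 to 1.59 for PDF1.2b and -0.44 to 1.18 for THI2.1, and at 24 h against 0 h -0.61 to 1.17 for PDF1.2, -0.48 to 1.01 for PDF1.2b and 0.14 to 1.76 for THI2.1. The difference of responses ranged at 12 h over -0.087 to 1.69, -0.38 to 1.24 and -0.50 to 1.12 for the 3 genes, and at 24 h over -0.78 to 0.99, -1.15 to 0.60 and 0.024 to 1.64.

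The replicate block, a term for the replicate number, changed no call of the 3 genes and gave 23, 131, 782 and 849 probe sets called higher in rcf1-1 at 0 h, 12 h, 24 h and averaged, against 21, 123, 753 and 836 without it. The labels give only a number, and replicate differences correlated between groups at -0.10 to 0.09, apart from 0.69 between both 24 h groups. The crossed pairing of the unchilled and 12 h wild-type arrays, added after seeing the data, gave 2913 calls against 2724. Over the other settings the counts called higher ranged from 1 to 737 at 0 h, 16 to 1708 at 12 h, 17 to 2520 at 24 h and 35 to 2854 averaged, and with 1 array left out from 2 to 34, 18 to 297, 497 to 1644 and 376 to 1684. Calls with cold ranged from 511 to 6498 and 395 to 5612 in wild type at 12 h and 24 h against 0 h (main 2724 and 2994), and 533 to 8550 and 635 to 7724 in rcf1-1 (2784 and 4734). At 24 h against 12 h they ranged from 78 to 3898 in wild type (1051) and up to 3544 in rcf1-1 (726), where limma on the compared arrays alone called 0, with 2830 at an unadjusted p under 0.05. Differences of responses ranged from 4 to 685 at 12 h (20) and from 28 to 3150 at 24 h (251). Without both 24 h replicate 2 arrays, 4, 3 and 3 of the 5 genes most like each of the 3 genes were again among the closest 5.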
